A study of Mus musculus with 6 samples.

Results

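The primitive endoderm is the extraembryonic layer that faces the blastocyst cavity, and its descendants are the visceral and the parietal endoderm of the yolk sac. A set of 31 genes known for these layers was taken by name, at a time when earlier results of these data were known. All 31 were found among the 53390 genes that have values in these data. Expression was measured by strand-specific sequencing of poly(A)-selected RNA in TKO mESCs, a male line derived from J1 cells of strain 129S4/SvJae that carries the genotype Dnmt1-/-, Dnmt3a-/-, Dnmt3b-/- and so lacks the DNA methyltransferases. All 6 libraries share this genotype, 3 were grown with serum and LIF (TKO-serum) and 3 with 2i and LIF (TKO-2i), and no library of methylated cells was analysed here. TKO-serum medium held 15% FCS and 500 U/ml of LIF. TKO-2i cells grew for 14 days in serum-free N2B27 medium with 1000 U/ml of LIF, 1 µM PD0325901, which inhibits MEK, and 3 µM CHIR99021, which inhibits Gsk3 beta. TKO is a single cell line, and the media differ in serum, LIF dose and both inhibitors at once, whose parts cannot be told apart. The labels call the replicates biological but do not describe separate derivations, so p-values measure the spread between these cultures only.

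In the embryo, GATA and SOX factors set up the primitive endoderm in inner cell mass cells that receive FGF signal through MEK and ERK, while cells without it remain epiblast. The visceral endoderm then takes up maternal proteins by endocytosis through cubilin and megalin and secretes serum carriers such as transthyretin, retinol-binding protein and apolipoproteins. Cultured mESCs are counterparts of the epiblast side, and serum cultures are known to hold some cells that express endoderm genes.

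Total estimated counts were 46228700, 44180642 and 43896549 in TKO-2i replicates 1, 2 and 3 and 38274042, 51932739 and 44827609 in TKO-serum replicates 1, 2 and 3. TKO-2i replicate 2 stood furthest from its group: the chi-square per gene was 47.6 against replicate 1 and 28.9 against replicate 3, compared with 7.499 between replicates 1 and 3. The serum pairs lay between 4.88 and 16.1. Counts summed over Dnmt1 were 6705, 6753 and 6616 in TKO-2i and 4985, 6893 and 5910 in TKO-serum. For Dnmt3a they were 320, 328 and 314 against 1165, 1563 and 1410, and for Dnmt3b 851, 895 and 880 against 1663, 2248 and 2020. Values per transcript do not show which exons were read, so these counts do not check the genotype. The label of the cells was checked with 6 markers of pluripotent cells, all of which were present in every library. Pou5f1 was the most abundant of them per length, at 1017 TPM (a level scaled for transcript length and library) in TKO-2i and 1250 TPM in TKO-serum as group means. The 6 markers together reached 2587, 2567 and 2423 TPM in the TKO-2i libraries and 2905, 2990 and 2924 TPM in the serum libraries.

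Of the 31 genes, 28 had enough counts to be tested, and 19 of these (67.9%) were lower in TKO-2i, beside 30.6% of all 18177 genes tested, where passing means an edgeR quasi-likelihood test with Benjamini-Hochberg adjusted p under 0.05. The count in the other direction was 2 (7.14%), beside 31.9% of all genes, and 7 did not pass, so that 21 (75%) passed in either direction, beside 62.5% of all genes. At a fold change of at least 2, 14 of the 28 (50.0%) were lower, beside 15.6% of all genes, and 1 (3.57%) was higher, beside 7.72%. Because the members were chosen with earlier results of these data known, these shares describe the set and do not test it. The median log2 fold change of TKO-2i over TKO-serum was -1.08 over the 28 genes and 0.01 over all genes tested. The 2 genes of 1 to 3 counts lie below this median also at the near end of their counting interval, so that it is -1.08 either way. Libraries of the groups did not overlap in CPM (counts scaled to library size, not to gene length) for 22 of the 28 (78.6%), beside 67.5% of all genes. Of the 28, 8 had under 10 counts in at least 1 library and met the filter on low counts through the other libraries, and 6 of these 8 were among the 19. Without TKO-2i replicate 2, 19 were lower and 3 higher, beside 6240 and 6328 of 18710 genes tested, and the median was -0.97. These are bulk cultures, so fewer cells of an endoderm type and less RNA per cell cannot be told apart for any of these genes.

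**Figure D1:**
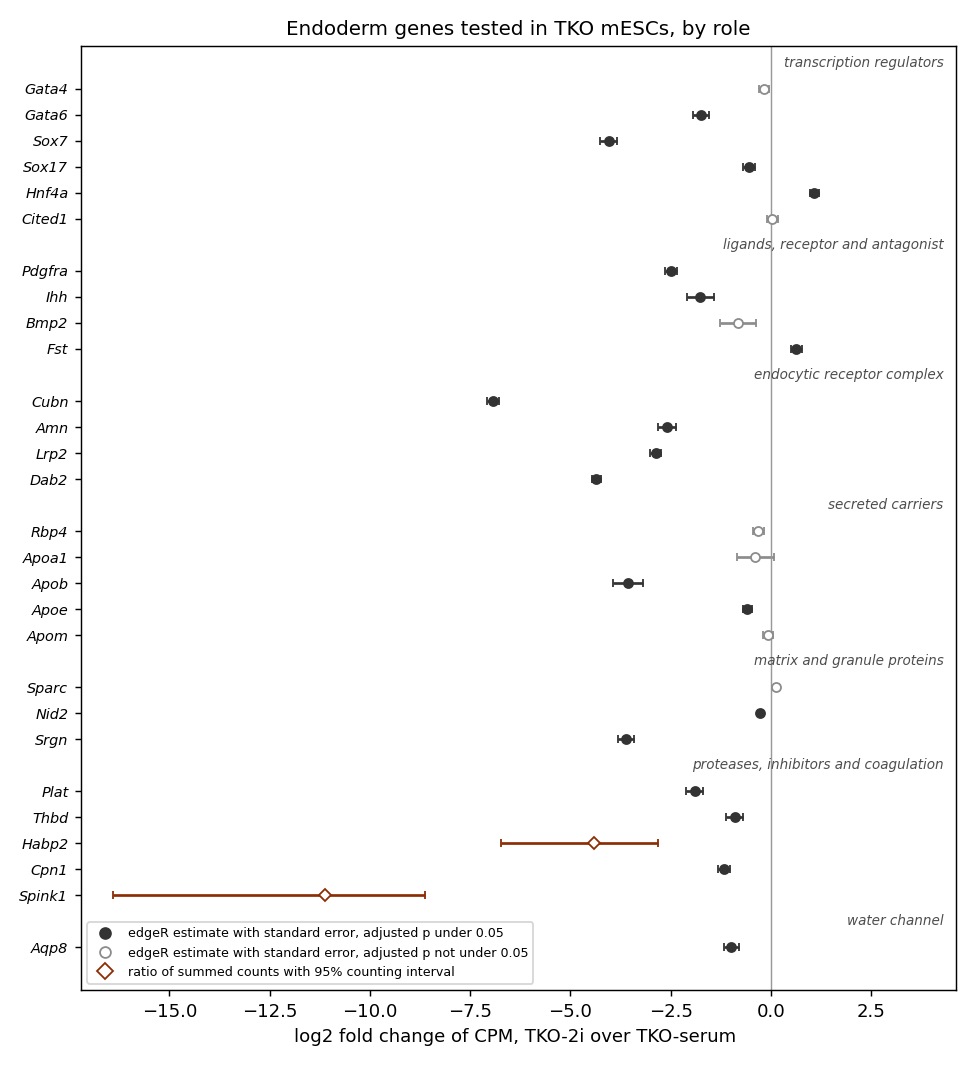
Log2 fold change of CPM in TKO-2i over TKO-serum for the 28 tested endoderm genes, grouped by role, with n = 3 libraries a group. Circles are edgeR estimates with their standard error, filled where the adjusted p is under 0.05, and diamonds are ratios of summed counts with a 95% counting interval for the 2 genes with 1 to 3 counts in TKO-2i. The 4 endocytic receptor genes lie between -2.59 and -6.93, while Hnf4a (1.08) and Fst (0.64) lie to the right of 0.

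Levels per length differed widely among the members. Apoe, Sparc, Nid2 and Spink1 had TKO-serum mean TPM values above those of more than 90% of the genes tested, at 663, 162, 139 and 113 TPM. The other 27 members lay no higher than the percentile of 56.3, which was that of Srgn at 10.9 TPM. Apoe alone held between 54.6% and 58.7% of the summed TPM of the 31 genes in every library. That sum was 686, 699 and 674 TPM in TKO-2i and 1164, 1135 and 1155 TPM in TKO-serum. Between 5 and 7 members were at or under 3 counts in each TKO-2i library, and between 0 and 2 in each TKO-serum library.

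**Figure D2:**
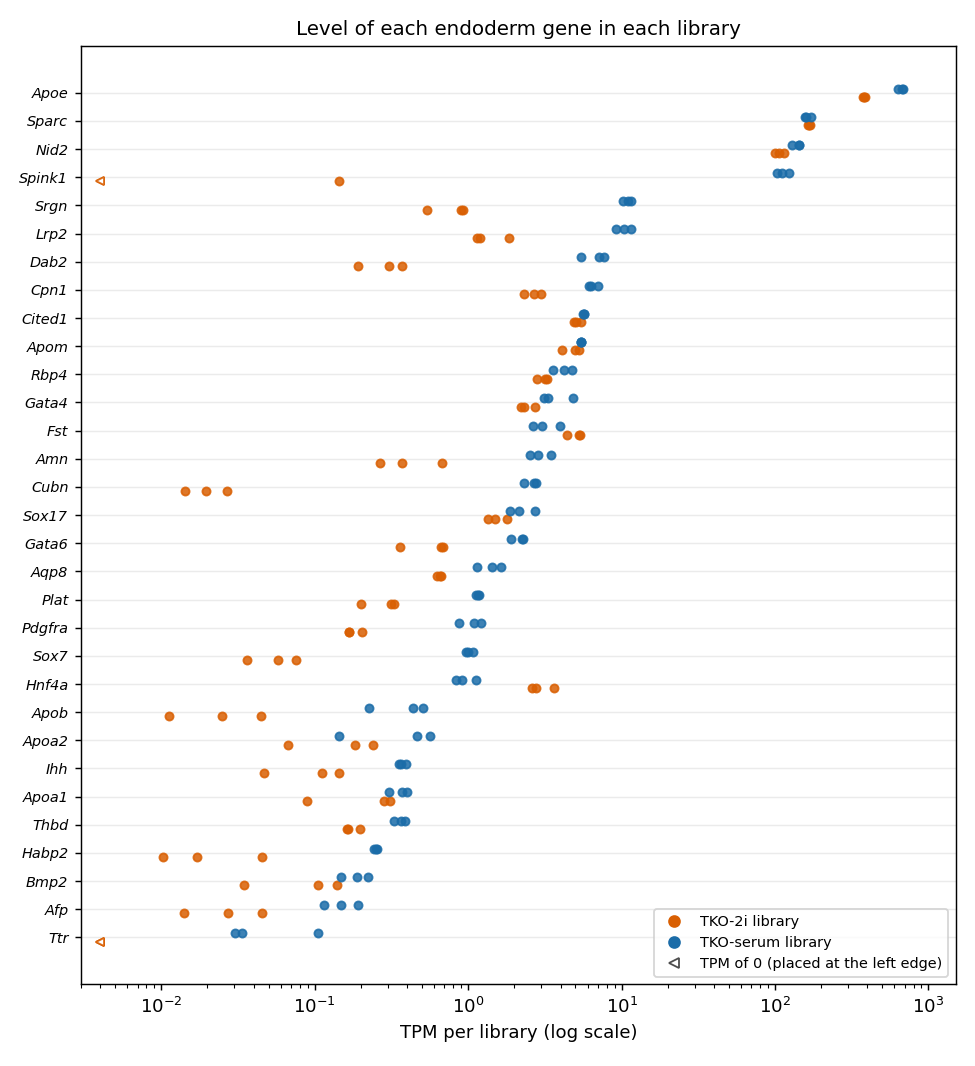
TPM of each of the 31 endoderm genes in each of the 6 libraries on a log scale, ordered by TKO-serum mean. Each point is 1 library, open triangles at the left edge stand for 0, and the serum values run from 663 TPM for Apoe to 0.0564 TPM for Ttr as means.

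Gata6 and Gata4, zinc finger factors that drive the primitive endoderm programme, behaved differently. Gata6 (ENSMUSG00000005836, chromosome 18 of GRCm38, 11052064 to 11085635) was at 1.23, 1.02 and 0.657 CPM in TKO-2i, in replicate order, and at 3.09, 3.38 and 3.37 CPM in TKO-serum. All 3 serum libraries were above all 3 TKO-2i libraries, and the log2 fold change was -1.75 (standard error 0.20, edgeR adjusted p = 9.1e-05). Gata4 (ENSMUSG00000021944, chromosome 14, 63198922 to 63271692) had 6.02, 6.05 and 5.70 CPM against 6.30, 5.81 and 7.92 CPM. The groups overlapped, and its log2 fold change of -0.17 did not pass (edgeR adjusted p = 0.26). On the TPM scale the same gene had 2.32, 2.72 and 2.20 TPM against 3.12, 3.31 and 4.81 TPM without overlap. Of 14 alternatives, 3 that use TPM or length-scaled counts called Gata4 lower, and adjusted p ran from 0.017 to 0.83 over the alternatives. Gata4 counts were split between transcripts that start near 63245248 and Gata4-204, which starts at 63271692 on the reverse strand. Gata4-204 was at 0 in the 3 TKO-2i libraries and had 7.1, 12.5 and 22.1 estimated counts in TKO-serum. Those few counts gave 0.565, 0.737 and 1.52 TPM, or 18.1%, 22.3% and 31.6% of the gene's TPM in TKO-serum. The difference of Gata4 on the TPM scale thus rests partly on them.

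The SOX factors Sox7 and Sox17, both SOXF proteins of primitive and parietal endoderm, were lower in TKO-2i by unequal amounts. Sox7 (ENSMUSG00000063060, chromosome 14, 63943673 to 63950732) had 4, 7 and 6 counts in TKO-2i and 87, 117 and 97 counts in TKO-serum. Every serum library was more than 10 times above every TKO-2i library, with a log2 fold change of -4.05 (standard error 0.22, edgeR adjusted p = 1.3e-06). Sox7 and Gata4 lie 671981 bases apart on chromosome 14. Sox17 had 1.23, 1.25 and 1.08 CPM in TKO-2i and 1.56, 1.90 and 1.76 CPM in TKO-serum (log2 fold change -0.56, edgeR adjusted p = 0.012). The Sox17 groups did not overlap, but without TKO-serum replicate 2 the log2 fold change was -0.49 and the adjusted p 0.056.

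Hnf4a, a nuclear receptor that drives apolipoprotein and transthyretin genes in visceral endoderm and liver, went the other way. It (ENSMUSG00000017950, chromosome 2, 163506808 to 163572910) had 6.16, 6.34 and 7.04 CPM in TKO-2i and 3.45, 2.82 and 2.98 CPM in TKO-serum. The TKO-2i libraries were all higher, with a log2 fold change of 1.08 (standard error 0.11, edgeR adjusted p = 4.6e-05). By counts most of Hnf4a was Hnf4a-201, from the downstream promoter, with 265.6, 265.4 and 290.9 estimated counts in TKO-2i and 133, 147.4 and 137 in TKO-serum. Hnf4a-205, which starts at the upstream promoter, had 10.4, 13.6 and 9.1 estimated counts in TKO-2i and 0, 2.6 and 0 in TKO-serum. Per length the split differed, and Hnf4a-205 held 43.4%, 51.7% and 38.9% of the gene's TPM in TKO-2i and 0%, 26.4% and 0% in TKO-serum. The log2 fold change of Hnf4a was 1.73 with length-scaled counts, and its mean TPM was 3.00 in TKO-2i and 0.956 in TKO-serum. Cited1, a transcriptional coregulator of visceral endoderm, had 3.66, 2.71 and 3.33 CPM against 3.34, 2.97 and 3.18 CPM, overlapping groups with a log2 fold change of 0.03 (edgeR adjusted p = 0.84).

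Among ligands and receptors, Pdgfra, the PDGF receptor that marks primitive endoderm cells, was lower in TKO-2i. It had 0.625, 0.887 and 0.774 CPM in TKO-2i and 4.46, 4.10 and 4.42 CPM in TKO-serum, with a log2 fold change of -2.50 (standard error 0.15, edgeR adjusted p = 2.2e-06). The groups did not overlap. Ihh, the hedgehog ligand of visceral endoderm, was rare in both media, at 4, 10 and 8 counts in TKO-2i and 26, 28 and 25 counts in TKO-serum. It passed as lower, with a log2 fold change of -1.77 (edgeR adjusted p = 0.0018). Fst, which encodes the activin antagonist follistatin, had 5.42, 4.37 and 6.33 CPM in TKO-2i and 3.60, 3.36 and 3.42 CPM in TKO-serum. All TKO-2i libraries were higher for Fst (log2 fold change 0.64, edgeR adjusted p = 0.0042). Bmp2 had 14, 3 and 10 counts against 15, 15 and 20 counts and did not pass (edgeR adjusted p = 0.15).

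The 4 genes of the endocytic receptor complex were all lower in TKO-2i, beside 30.6% of all genes tested. Cubilin, encoded by Cubn (ENSMUSG00000026726, chromosome 2, 13276338 to 13491813), is the large receptor without a membrane anchor that binds many ligands. Cubn had 6, 10 and 8 counts in TKO-2i and 802, 1246 and 1073 counts in TKO-serum, or 0.183 ± 0.0469 and 22.5 ± 1.496 CPM (SD, n = 3). The serum libraries were all far above those in 2i, at a log2 fold change of -6.93 (standard error 0.14, edgeR adjusted p = 1.6e-08). Amn encodes amnionless, the membrane protein that carries cubilin to the surface. Its counts (ENSMUSG00000021278, chromosome 12, 111271095 to 111276426) were 14, 16 and 23 in TKO-2i and 96, 110 and 129 in TKO-serum. Amn was lower in every TKO-2i library than in any serum library (log2 fold change -2.59, standard error 0.23, edgeR adjusted p = 2.1e-05).

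Megalin, the partner receptor encoded by Lrp2 (ENSMUSG00000027070, chromosome 2, 69424340 to 69586065), had 14.7, 20.8 and 15.3 CPM in TKO-2i and 114, 133 and 126 CPM in TKO-serum. Its groups did not overlap, and the log2 fold change was -2.88 (standard error 0.13, edgeR adjusted p = 5.4e-07). Dab2 encodes the clathrin adaptor that binds the tail of megalin. The Dab2 counts (ENSMUSG00000022150, chromosome 15, 6299788 to 6440712) were 28, 32 and 30 in TKO-2i and 506, 785 and 655 in TKO-serum. Again no library overlapped, with a log2 fold change of -4.35 (standard error 0.11, edgeR adjusted p = 3.3e-08). The ratio of Cubn to Amn TPM was 0.809, 1.09 and 0.775 in TKO-serum, where the retained-intron transcript Amn-202 held 39.0%, 32.9% and 40.0% of the Amn TPM. In TKO-2i that ratio was 0.0535, 0.0723 and 0.0290, on few counts, with Amn-202 at 0%, 0% and 70.3%. The ratio of Lrp2 to Cubn TPM was 3.95, 4.12 and 3.84 in TKO-serum and 83.1, 69.3 and 57.6 in TKO-2i, where it again rests on few counts of Cubn. Summed over the 4 genes, the level was 1.66, 2.54 and 2.20 TPM in TKO-2i and 19.7, 23.9 and 24.2 TPM in TKO-serum.

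The list of 8 other megalin partners and lipoprotein receptors held 3 genes that passed, all higher in TKO-2i (beside 31.9% of all genes), among them Vldlr (log2 fold change 1.05) and Lrp1 (0.46). With limma on log2(TPM + 1) or log2(TPM + 0.1), Lrp1 no longer passed. Clcn5 (-0.21) did not pass but was lower with the replicate block and without TKO-2i replicate 2 (-0.33). The most abundant genes of that list per length did not pass. Ap2b1, an adaptor subunit of clathrin coats, was at 67.5 TPM in TKO-2i and 68.7 TPM in TKO-serum. Lrpap1, the chaperone that escorts megalin, was at 55.2 and 61.7 TPM. The median log2 fold change of the list was 0.06, beside 0.01 over all genes.

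Because these 4 genes fell together, the promoter of each is given as RefSeq holds it for GRCm38.p6, from 250 bases before to 50 bases after the start. The windows are chr2:13491827-13492126 on the reverse strand for Cubn, chr12:111270846-111271145 on the forward strand for Amn, chr2:69585980-69586279 on the reverse strand for Lrp2 and chr15:6386498-6386797 on the forward strand for Dab2, the one of its 2 windows with more counts. Capitals mark CpG, the dinucleotide that the missing enzymes methylate, of which these windows hold 5, 15, 20 and 19 in that order. RefSeq starts Cubn at 13491876, and the counted transcript Cubn-201 starts at 13491813, just outside the window shown.
Cubn promoter: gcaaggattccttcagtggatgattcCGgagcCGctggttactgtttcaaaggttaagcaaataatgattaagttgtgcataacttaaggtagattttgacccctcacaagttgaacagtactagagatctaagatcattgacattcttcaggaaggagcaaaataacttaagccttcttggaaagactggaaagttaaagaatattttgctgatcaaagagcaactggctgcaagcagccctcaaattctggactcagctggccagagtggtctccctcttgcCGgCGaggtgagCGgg
Amn promoter: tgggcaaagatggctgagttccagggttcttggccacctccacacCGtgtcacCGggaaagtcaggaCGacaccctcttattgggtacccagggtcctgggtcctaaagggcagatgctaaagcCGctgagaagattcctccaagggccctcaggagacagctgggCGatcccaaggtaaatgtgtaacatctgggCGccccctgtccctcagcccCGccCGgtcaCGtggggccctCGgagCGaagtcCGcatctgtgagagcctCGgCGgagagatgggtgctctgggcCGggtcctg
Lrp2 promoter: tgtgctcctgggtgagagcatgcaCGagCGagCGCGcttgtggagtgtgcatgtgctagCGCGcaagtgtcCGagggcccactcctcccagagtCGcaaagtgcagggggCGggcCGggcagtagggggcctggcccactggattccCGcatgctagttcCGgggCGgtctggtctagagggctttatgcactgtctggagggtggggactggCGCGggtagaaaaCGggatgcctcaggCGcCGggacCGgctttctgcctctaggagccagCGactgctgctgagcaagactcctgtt
Dab2 promoter: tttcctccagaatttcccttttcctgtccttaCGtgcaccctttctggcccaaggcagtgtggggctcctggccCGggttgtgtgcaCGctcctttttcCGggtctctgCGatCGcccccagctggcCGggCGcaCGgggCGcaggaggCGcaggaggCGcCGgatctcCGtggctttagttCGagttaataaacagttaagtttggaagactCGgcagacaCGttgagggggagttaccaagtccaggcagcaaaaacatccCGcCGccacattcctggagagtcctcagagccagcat
The Cubn window thus holds fewer CpG than the windows of Amn, Lrp2 and Dab2. Promoters of 20 of the 31 members were in the table, as 29 windows, with a median of 8 CpG (range 1 to 40) beside a median of 7 over all 32851 windows. The 11 members without an entry are Plat, Spink1, Fst, Gata6, Nid2, Sox7, Thbd, Ttr, Bmp2, Gata4 and Sox17. The GATA motif, searched as AGATAA or TGATAA on both strands, was found in 3 of the 29 windows, beside 18.6% of all windows. Those 3 belong to Apoa1, Dab2 (the window not shown) and the upstream promoter of Hnf4a. ACAATGG, a SOX motif, was in 0 of the 29 and 3.66% of all windows, and CAAAGTCCA, an HNF4 motif, in 0 of the 29 and 0.475% of all windows, both strands searched. A match is a run of letters in this window and not a site of binding.

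The pair of Hnf4a promoters is shown because transcripts from both were counted. They lie on the forward strand at chr2:163506607-163506906 (upstream) and chr2:163546905-163547204 (downstream), hold 4 CpG each, marked by capitals, and the GATA match of the upstream window begins at its base 199.
Hnf4a upstream promoter: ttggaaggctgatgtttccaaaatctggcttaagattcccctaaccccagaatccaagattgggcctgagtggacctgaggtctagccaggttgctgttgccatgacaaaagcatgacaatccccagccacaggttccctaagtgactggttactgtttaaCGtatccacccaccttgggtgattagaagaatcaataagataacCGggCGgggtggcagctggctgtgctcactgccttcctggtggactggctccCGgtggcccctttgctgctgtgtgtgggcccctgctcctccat
Hnf4a downstream promoter: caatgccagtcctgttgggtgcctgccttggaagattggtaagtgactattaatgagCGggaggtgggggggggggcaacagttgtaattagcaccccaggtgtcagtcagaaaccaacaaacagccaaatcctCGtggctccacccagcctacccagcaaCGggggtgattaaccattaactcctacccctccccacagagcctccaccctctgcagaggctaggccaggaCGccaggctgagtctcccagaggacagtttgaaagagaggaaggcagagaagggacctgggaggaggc
The downstream window holds the start of Hnf4a-201 and the upstream window that of Hnf4a-205. In TKO-2i they were at 1.47, 1.74 and 1.70 TPM and at 1.13, 1.86 and 1.08 TPM in turn.

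The secreted carriers were mostly rare or little changed. Ttr, which encodes transthyretin, had 0 counts in the 3 TKO-2i libraries and 1, 4 and 1 counts in TKO-serum. Afp, encoding alpha-fetoprotein, had 2, 3 and 1 counts against 9, 9 and 9 counts, and Apoa2 1, 2 and 3 against 6, 6 and 2 counts. None of these 3 genes had enough counts to be tested, and no fold change is given for them. Apob, the structural protein of large lipoproteins, had 5, 19 and 5 counts in TKO-2i and 87, 164 and 116 counts in TKO-serum. The groups of Apob did not overlap, and the log2 fold change was -3.56 (standard error 0.38, edgeR adjusted p = 6.3e-05), or -4.49 without TKO-2i replicate 2, the library with 19 counts.

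Apoe (ENSMUSG00000002985, chromosome 7, 19696109 to 19699188), a lipid carrier that many cell types make, had 330, 255 and 310 CPM in TKO-2i and 493, 398 and 458 CPM in TKO-serum. It was lower in every TKO-2i library than in every serum library, with a log2 fold change of -0.59 (standard error 0.11, edgeR adjusted p = 0.0014). Rbp4, the plasma carrier of retinol, had 2.25, 2.00 and 2.02 CPM against 2.33, 2.52 and 2.98 CPM. Those groups did not overlap but the difference did not pass (log2 fold change -0.32, edgeR adjusted p = 0.071). Apom had 4.57, 3.66 and 3.49 CPM against 4.41, 3.87 and 4.09 CPM and Apoa1 13, 3 and 11 counts against 12, 12 and 13 counts, and neither passed (edgeR adjusted p = 0.64 and 0.49).

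Of 10 other apolipoprotein and lipid transfer genes, 5 were tested. TKO-2i was higher for 3 and lower for 1 of them, beside 31.9% and 30.6% of all genes, and the median log2 fold change was 0.96. Apoc1, the neighbour of Apoe on chromosome 7 (19689481 to 19692660), rose from 577, 682 and 588 counts in TKO-serum to 1495, 1094 and 1231 counts in TKO-2i (log2 fold change 1.10, edgeR adjusted p = 5.1e-05). Apoe and Apoc1 thus moved in opposite directions. Apod, a lipocalin, was also higher (2.11), as was Apof (0.96), whose log2 fold change was 0.81 and adjusted p 0.056 without TKO-serum replicate 2. Mttp, which loads lipid onto apolipoprotein B, was lower (-1.56), as Apob was. Apoh and Apoc3 had 1 count each over the 6 libraries, and Apoa4, Apoa5 and Apoc2 were also under the filter.

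Of the matrix and granule genes, Sparc and Nid2 were abundant per length in both media and Srgn was not. Sparc, a collagen-binding glycoprotein of parietal endoderm, had 313, 274 and 306 CPM in TKO-2i and 277, 271 and 265 CPM in TKO-serum. Its groups overlapped through TKO-2i replicate 2, and the log2 fold change was 0.14 (edgeR adjusted p = 0.083), or 0.20 with an adjusted p of 0.0029 without that library. Sparc also passed as higher with the replicate block (edgeR adjusted p = 0.030). Nid2, the basement membrane linker nidogen 2, had 370, 363 and 374 CPM against 448, 440 and 452 CPM. The Nid2 libraries did not overlap, and the difference was small (log2 fold change -0.28, standard error 0.04, edgeR adjusted p = 6.8e-04). Nid2 overlaps the opposite-strand gene Rtraf, and whether counting used strand is not given in the sources used here. Srgn encodes serglycin, a granule proteoglycan that parietal endoderm secretes. Srgn counts were 24, 23 and 12 in TKO-2i and 237, 268 and 245 in TKO-serum, and no library overlapped (log2 fold change -3.61, standard error 0.20, edgeR adjusted p = 1.6e-06).

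The 14 basement membrane genes and their assembly enzymes were all tested: 8 were lower and 2 higher, beside 30.6% and 31.9% of all genes, and 4 did not pass. Their median log2 fold change was -0.33. The type IV collagen chains Col4a1 and Col4a2 were lower by the same amount, at -2.95 for both, and the laminin chain Lamb1 was lower at -3.15. Lamb1 fell from 211 to 23.7 CPM as group means. Lamc1, which pairs with it in laminin, was at a mean of 608 CPM in TKO-serum and of 584 CPM in 2i and did not pass (log2 fold change -0.06, edgeR adjusted p = 0.4), though without TKO-2i replicate 2 it did (-0.11, adjusted p = 0.031). The same held for Lama5 (-0.23) and Agrn (-0.16) without that library, and for Lama5 with the replicate block. The 2 higher genes were Nid1 (1.14), the paralog of Nid2, and Plod1 (0.15). Plod1 passed under 2 of the 14 alternatives, the replicate block and leaving out TKO-2i replicate 2. It did not pass without any 1 of the other libraries, with adjusted p between 0.068 and 0.21 then.

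The genes for proteases, inhibitors and coagulation proteins were 5, and all 5 were lower in TKO-2i, beside 30.6% of all genes tested. Spink1, a trypsin inhibitor (ENSMUSG00000024503, chromosome 18, 43728082 to 43737557), had 0, 0 and 1 counts in TKO-2i and 735, 880 and 697 counts in TKO-serum. It was thus at or near 0 in all TKO-2i libraries while in TKO-serum its 113 ± 10.2 TPM (SD, n = 3) exceeded that of 27 other members. From summed counts, TKO-serum was higher by a ratio of 2206, with a 95% counting interval from 396 to 87189. That ratio rests on the 1 count of TKO-2i replicate 3. Without that library the TKO-2i group was at 0 counts, which allows no finite ratio. Habp2, a serine protease that binds hyaluronan, had 1, 1 and 1 counts against 20, 25 and 22 counts, a ratio of 21.3 with an interval from 6.99 to 106. Habp2 lies on the opposite strand of part of Nrap, which had between 7 and 13 counts in every library.

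Plat encodes tissue plasminogen activator, which parietal endoderm secretes. Its values were 0.759, 0.409 and 0.727 CPM in TKO-2i and 2.52, 2.20 and 2.42 CPM in TKO-serum, and the groups did not overlap (log2 fold change -1.90, standard error 0.22, edgeR adjusted p = 9.4e-05). Cpn1, a carboxypeptidase N subunit, had 5.20, 3.48 and 4.69 CPM against 10.01, 9.29 and 10.8 CPM, again without overlap (log2 fold change -1.17, edgeR adjusted p = 1.3e-04). Thbd, the endothelial and parietal endoderm receptor thrombomodulin, had 20, 17 and 23 counts against 35, 47 and 36 counts (log2 fold change -0.90, edgeR adjusted p = 0.0057). The water channel Aqp8 had 0.759, 0.659 and 0.727 CPM against 1.71, 1.39 and 1.18 CPM (log2 fold change -0.99, edgeR adjusted p = 0.0024). For both, every serum library was above every TKO-2i library.

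Of 13 other transcription factors of endoderm, 11 were tested, and 6 were lower, 3 higher and 2 did not pass, beside 30.6% lower and 31.9% higher of all genes. Their median log2 fold change was -0.67. Otx2, a factor of anterior visceral endoderm and of primed epiblast, fell from 1345, 1898 and 1576 counts in TKO-serum to 198, 192 and 179 counts in TKO-2i (log2 fold change -3.01, edgeR adjusted p = 1.6e-08). Foxq1 (-3.67) and Sox18 (-3.17), the third SOXF gene beside Sox7 and Sox17, were also lower. Eomes (2.81) and Zfpm1 (0.65), a cofactor of GATA proteins, were among the higher genes. Foxa3, 1 of the 6 lower genes (-0.67), did not pass without TKO-2i replicate 3 (-0.59, adjusted p = 0.062) or TKO-serum replicate 3 (-0.53, adjusted p = 0.072). Hhex was at 8.59 TPM in TKO-2i and 8.88 TPM in TKO-serum and did not pass (edgeR adjusted p = 0.59). Among 7 anterior visceral endoderm genes, of which Otx2, Hhex and Lhx1 are also in the list before, 5 were tested and the 3 that passed were all lower (beside 30.6% of all genes): Otx2, the Nodal antagonist Lefty1 (-2.16) and the Wnt antagonist Sfrp5 (-1.25). Lefty1 was the most abundant of these per length, at 38.8 TPM in TKO-2i and 181 TPM in TKO-serum.

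In the list of 16 other visceral and parietal endoderm genes, 12 were tested, and 7 were lower and 4 higher, beside 30.6% and 31.9% of all genes, with a median log2 fold change of -0.69. Pth1r, the parathyroid hormone receptor of parietal endoderm, had 3, 5 and 7 counts in TKO-2i and 161, 190 and 174 counts in TKO-serum (log2 fold change -5.04, edgeR adjusted p = 5.1e-07). Keratins of the same epithelia were divided, with Krt8 higher (1.78) and both Krt18 (-0.97) and Krt19 (-1.54) lower. The most abundant genes of the list per length were both higher: the homeobox gene Rhox5 had 240 TPM in TKO-2i and 104 TPM in TKO-serum, and the filament gene Vim 150 and 93.4 TPM. The other higher gene was Dpp4 (0.98). Vil1, counted as lower (-0.59), lost its call without any 1 of TKO-2i replicates 2 and 3 and TKO-serum replicates 1 and 2, with adjusted p between 0.065 and 0.17 then. It also lost its call with length-scaled counts and on both log2 TPM scales.

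In the FGF to ERK list 9 of 12 genes were lower and 1 higher, beside 30.6% and 31.9% of all genes, and the median log2 fold change was -2.46. Fgfr2, a receptor of endoderm and trophoblast, had 22, 22 and 15 counts in TKO-2i and 450, 632 and 504 counts in TKO-serum (log2 fold change -4.67, edgeR adjusted p = 5.7e-08). The ERK phosphatases Dusp4 (-3.23) and Dusp6 (-2.92) were lower too. The ligand Fgf4 was at 88.1 TPM in TKO-2i and 99.7 TPM in TKO-serum and did not pass (log2 fold change -0.09, edgeR adjusted p = 0.15), while without TKO-2i replicate 2 it passed as lower (-0.11, adjusted p = 0.048), as with at least 10 counts in every library. Etv5, the most abundant gene of the list per length, was at 133 and 194 TPM and passed as lower (-0.45), while Etv4 was the 1 that was higher (0.49). Spry2 (-0.21), counted as lower, did not pass without TKO-2i replicate 3 or TKO-serum replicate 1 or 2, with adjusted p between 0.06 and 0.094 then.

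Partners of the PDGF, hedgehog and BMP members gave 6 lower and 4 higher genes among 14 tested of 15, beside 30.6% and 31.9% of all genes, with a median log2 fold change of -0.22. Pdgfa, a ligand of Pdgfra and the most abundant gene of the list per length, was higher (0.84), at 62.3 TPM in TKO-2i and 37.7 TPM in TKO-serum. Pdgfb (-0.77) and Pdgfc (-0.54), other PDGF ligands, were lower, as Pdgfra was. Gli1 (-2.92), Ptch1 (-1.54) and Hhip (-1.95), which hedgehog signal induces, were lower, as was the rare Ihh. A link between Ihh and these genes was not tested. The hedgehog transducers Smo (0.73) and Gli2 (0.21) were among the 4 higher genes with Bmp4 (0.68), and Gli2 did not pass with length-scaled counts or on log2 TPM. The BMP receptor gene Bmpr1a was at 24.9 and 25.3 TPM and did not pass. With the replicate block Bmpr1a passed as higher. The receptors Acvr2a (-0.23) and Acvr2b (-0.22) did not pass, but both were lower with the replicate block and without TKO-2i replicate 2 (-0.29 and -0.30). Acvr2a was also lower without TKO-serum replicate 1 (-0.31), and Acvr2b in DESeq2, with its size factors in edgeR, with at least 10 counts in every library and with no filter.

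**Figure D3:**
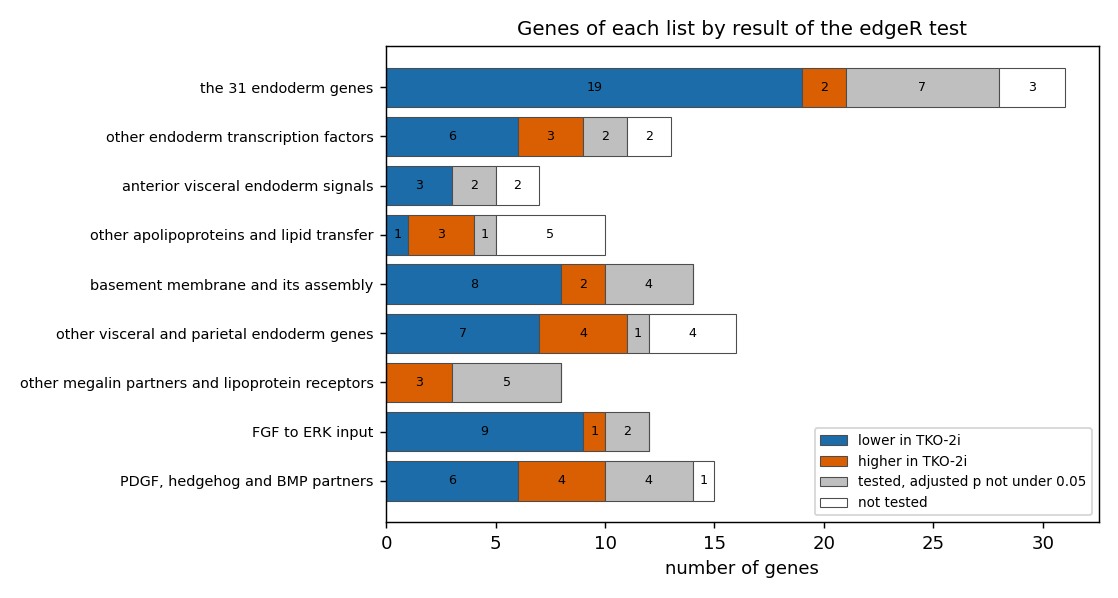
Number of genes in the endoderm set and in 8 related lists that were lower, higher or not past an adjusted p of 0.05 in TKO-2i, or not tested, from the edgeR fit over 18177 genes. Of the 31 endoderm genes 19 were lower and 2 higher, and of the 12 FGF to ERK genes 9 were lower and 1 higher.

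Markers of other cell types were summed per library to set beside these results. The 5 mesendoderm markers summed to 22.8, 23.3 and 27.9 TPM in TKO-2i and 3.79, 3.79 and 4.18 TPM in TKO-serum, and 4 of 5 were higher in TKO-2i, beside 31.9% of all genes, led by T (log2 fold change 5.58). T was the most abundant of them in TKO-2i, at 11.8 TPM, and the least abundant in TKO-serum, at 0.270 TPM. Eomes (2.81), also in the list of endoderm factors, was among them, as were Gsc (2.36) and Cxcr4 (0.73), whose adjusted p was between 0.057 and 0.097 without TKO-2i replicate 1 or 3 or TKO-serum replicate 2 and which did not pass on log2(TPM + 0.1). Mixl1, the fifth, passed without TKO-serum replicate 2 (0.67, adjusted p = 0.038). Trophoblast markers summed to 44.1, 43.1 and 40.6 TPM in TKO-2i and 41.9, 41.2 and 39.2 TPM in TKO-serum. Of these 8, 4 were lower and 3 higher, beside 30.6% and 31.9% of all genes, with Tfap2c the most abundant, Cdx2 higher (4.28) and Ascl2 lower (-3.37). The 6 hepatocyte markers summed to no more than 0.735 TPM in any library, and of 2 tested Cps1 was lower (-1.65) and Tat higher (2.11). Tat was the most abundant in TKO-2i (0.238 TPM) and Cps1 in TKO-serum (0.453 TPM). Alb had 0, 1 and 0 counts in TKO-2i and 1, 0 and 3 counts in TKO-serum, and Cyp3a11 was at 0 in all 6 libraries.

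Fibroblast markers summed to 4.12, 4.81 and 4.55 TPM in TKO-2i and 5.86, 6.48 and 6.03 TPM in TKO-serum, and of 8 only 3 were tested, of which 2 were lower, beside 30.6% of all genes. Thy1 was the most abundant, and Col3a1, Postn, Lum and Twist2 had at most 5 counts in any library. Col1a1 had 182, 133 and 142 counts in TKO-2i and 147, 210 and 138 counts in TKO-serum and did not pass (log2 fold change -0.05, edgeR adjusted p = 0.81). Col1a2 was lower (-1.55), at 17, 11 and 20 against 37, 61 and 51 counts. Dcn had 0, 1 and 0 counts in TKO-2i and 11, 14 and 8 counts in TKO-serum. The 5 endothelial markers summed to 63.0, 68.5 and 57.4 TPM in TKO-2i and 34.3, 35.7 and 34.8 TPM in TKO-serum. Pecam1, the most abundant in both media, was higher (1.26), at 60.6 TPM in TKO-2i and 27.3 TPM in TKO-serum. Tek was lower, at 1.72 and 6.67 TPM, as was Cdh5, and Emcn was at 0 in every library. Blood and macrophage markers summed to between 25.3 and 32.9 TPM in TKO-2i and between 18.7 and 23.4 TPM in TKO-serum, mostly Cd68. Of these 5, 3 were tested, and 2 were higher and 1 lower, beside 31.9% and 30.6% of all genes. Ptprc and Tyrobp had at most 5 counts in any library. Spi1 was higher, with 88, 75 and 74 counts in TKO-2i and 28, 29 and 38 counts in TKO-serum (log2 fold change 1.37, edgeR adjusted p = 3.1e-04). Csf1r was the lower gene, with 0, 1 and 1 counts in TKO-2i and 10, 14 and 18 counts in TKO-serum. The part of mesendoderm, trophoblast, fibroblast, endothelial or blood cells in the endoderm results was not tested.

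The split of counts between transcripts of a member was often unstable between replicates of a medium. Apob-201 held 87, 42.5 and 0 estimated counts in TKO-serum replicates 1, 2 and 3 and Apob-202 held 0, 103.7 and 101.2. For Srgn, Srgn-201 had 103.3, 0 and 121.2 and Srgn-205 had 0, 101.5 and 0 in the same libraries. The sequences of such pairs were not compared. Gene counts and CPM do not depend on how reads were shared between them, but summed TPM does, since each transcript is scaled by its own length. In TKO-serum replicate 2, Apob-203 with 17.8 estimated counts was at 0.229 TPM and Apob-202 with 103.7 at 0.197 TPM. Cubn counts by contrast lay almost wholly on Cubn-201, with 802, 1246 and 1070.5 estimated counts in TKO-serum, and Sox7 and Spink1 each had a single transcript with counts.

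The 31 genes lie on 16 chromosomes, with the most on chromosome 2, where Cubn, Lrp2, Hnf4a, Bmp2 and Thbd make 5. Of these neighbours by chromosome Cubn, Lrp2 and Thbd were lower, Hnf4a was higher and Bmp2 did not pass.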

How the data were processed

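Each library came from the authors as estimated counts and TPM per transcript, in the columns that salmon writes. The quantifier, its version and its index are not given in the sources used here, and the submitters' processing notes name mm10. The paper's methods describe Tophat (V2) and RPKM, which are not the values used here. No normalization was applied to the authors' estimated counts, of which 85.1% to 85.8% of the values above 0 are not whole. The authors' TPM are scaled for effective length and to a fixed sum.

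Of 136288 transcripts, 136100 had a gene name in GENCODE M21 (GRCm38), and the rest held 0.0473% to 0.0643% of the counts. Gene sums were rounded, kept by filterByExpr, scaled by TMM and compared in edgeR 4.0.16 under R 4.3.3 (glmQLFit, glmQLFTest, condition only, common biological coefficient of variation 0.0902). A standard error is the log2 fold change over the square root of F. Genes with 1 to 3 counts in a group have a ratio of summed counts per TMM-scaled library with a 95% Clopper-Pearson interval. The floor of 3 counts is 0.0578 to 0.0784 CPM. The interval and the floor cover counting error alone, as reads carry no molecular identifiers.

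Members and lists were chosen with earlier results of these data known. From each list the text names genes from among the 3 largest absolute log2 fold changes among genes past the threshold with a mean of at least 1 CPM, and the 2 highest mean TPM. Other genes named from lists, neighbouring pairs, transcripts and CpG counts were chosen after their values were seen. Alternatives were DESeq2 1.42.0, its size factors in edgeR, no filter, at least 10 counts in every library, length-scaled counts, limma 3.58.1 on log2(TPM + 1) and log2(TPM + 0.1), a replicate block and leaving out each library. Promoters came from RefSeq (GRCm38.p6).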

Additional observations from a re-analysis of the deposited data

How the results depend on the processing

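The number of endoderm genes lower in TKO-2i was 19, and it lay between 14 and 21 under every alternative run. It was 20 without a filter on low counts, beside 6380 of all 34355 genes tested then. Without TKO-serum replicate 2 it was 18, beside 5074 of 18589 genes. With at least 10 counts required in every library it was 14, beside 4716 of 15556 genes. That filter leaves 20 of the 31 genes to test and removes genes that are near 0 in TKO-2i. The number was 21 with limma on log2(TPM + 1) or log2(TPM + 0.1). On those scales all genes tilted lower too, with 5839 or 5829 lower and 4209 or 4214 higher of 18177 and medians of -0.06 and -0.08, against 5557 and 5804 in edgeR. Higher genes were 2, or 3 with the replicate block and without TKO-2i replicate 2, the third being Sparc. The median log2 fold change of -1.08 was -0.79 with at least 10 counts in every library, -0.45 with limma on log2(TPM + 1), whose added 1 shrinks differences of genes under 1 TPM, and between -1.30 and -0.97 when 1 library was left out. No called endoderm gene changed direction under these alternatives. Single calls changed for Gata4 and Rbp4, which passed as lower on both log2 TPM scales, with Gata4 also passing on length-scaled counts and Rbp4 with at least 10 counts in every library. Sox17 lost its call on length-scaled counts and without TKO-serum replicate 2. The cause of these changes was not tested. Same-numbered libraries of the 2 media had correlated deviations from their group means of 0.242, 0.329 and 0.014 across genes for replicates 1, 2 and 3, and TKO-2i replicate 3 correlated better with TKO-serum replicate 1 (0.123) than with its own number, so the numbers were not taken to pair the libraries. With the replicate block, 19 endoderm genes were lower, 3 were higher (6095 and 6444 of all 18177) and the median was -1.08. Depth limits Ttr, Afp and Apoa2, which were under the filter, and Ihh, Bmp2, Apoa1, Habp2 and Thbd, which had at most 47 counts in any library.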
